A study of Mus musculus with 12 samples.

Results

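The regions described here are stretches of the mouse genome that carried an H3K27ac peak in 2 or 3 wild-type (WT) libraries and in none of the 3 knockout (KO) libraries. Peaks of the 6 H3K27ac libraries on chromosomes 1 to 19 were merged where they overlapped by 1 bp or more, which gave 61552 merged regions. Of these, 921 met the rule, a share of 1.5%, and they are called WT-only regions below. The mirrored rule, with peaks in 2 or 3 KO and no WT library, was met by 1137 regions, a share of 1.85%. The regions were chosen by the presence of H3K27ac peaks in these same libraries, so every H3K27ac value given for them is a description and carries no test.

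The study profiled neural progenitor cells grown as neurospheres from the ganglionic eminence, the ventral part of the embryonic forebrain that gives rise to GABAergic interneurons. The cells came from C57BL/6 animals at E15.5. KO animals are labelled Nestin-KO, and the title of the series names SETDB1, an enzyme that places the repressive mark H3K9me3. Nestin drives Cre recombinase in neural progenitors, so a deletion made this way affects that lineage and not the whole animal. WT animals are labelled only as wild type, and the labels give no further allele for either genotype. Each library held the native chromatin of 100000 nuclei, immunoprecipitated for 1 of 2 marks, H3K27ac or H3K9me3, in 3 animals per genotype and mark. The labels name no drug or other treatment. WT replicate 1 and KO replicate 1 of H3K27ac came from females and share the first number in their titles, and the other 4 came from males and share another. What that number stands for is not stated, and for H3K27ac both genotypes hold the same mix of numbers and sexes. Replicate numbers are names only.

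H3K27ac is acetylation of lysine 27 on histone H3. It marks nucleosomes at active promoters and at active enhancers, which are distal sequences that raise the transcription of a gene. It is written by the acetyltransferases p300 and CBP and removed by histone deacetylases. A peak is a stretch where fragments from the immunoprecipitate pile up above the local background. Its fold enrichment is the pile-up at the summit divided by that background, each with 1 added.

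The lists of peaks differed in length between libraries of the same genotype. WT replicates 1, 2 and 3 had 31354, 36516 and 12111 peaks, and KO replicates 1, 2 and 3 had 25880, 41705 and 11252. The lists of replicate 3 stood apart as short in both genotypes. The number of fragments over each summit was recovered from the deposited fold and p-value for 99.97% to 100% of the peaks of a list, within 0.001 in -log10 p. The lowest background was 1.11, 2.61 and 2.55 fragments per base in WT replicates 1, 2 and 3, and 1.17, 2.71 and 2.31 in KO replicates 1, 2 and 3. A peak lay in Setdb1 or within 1 kb of it in 3 KO and 2 WT libraries, with folds of 5.07, 6.03 and 3.94 in KO replicates 1, 2 and 3 and 8.11 and 5.12 in WT replicates 1 and 2. An H3K27ac peak does not report a deleted exon, so this does not check the labels.

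Peaks lay at some genes of progenitors, of differentiating neurons and of glia. Of 19 neural stem and progenitor genes, 7 had a peak within the gene or 1 kb of it in all 6 libraries, among them Nes, Pax6 and Fabp7, and 1 had a peak in none. Sox2 had a peak in 4 libraries. Of 13 neuron differentiation genes, 6 had a peak in all 6 libraries and 3 had none. Of 15 caudal eminence genes, 5 had a peak in all 6 and 6 had none. Of 13 medial eminence genes, 2 had a peak in all 6 and 6 had none. Of 15 astrocyte and oligodendrocyte genes, 2 had a peak in all 6 and 2 had none. Of 14 vascular and mesenchymal genes, 1 had a peak in all 6 and 8 had none. Of 11 microglia and blood genes, 1 had a peak in all 6 and 6 had none, with Aif1 and Cx3cr1 among those without. Of 14 cortical excitatory genes, 0 had a peak in all 6 and 9, Tbr1 among them, had none. Of 16 pan-GABAergic and subpallial genes, 2 had a peak in all 6 libraries and 10 had none.

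**Figure D1:**
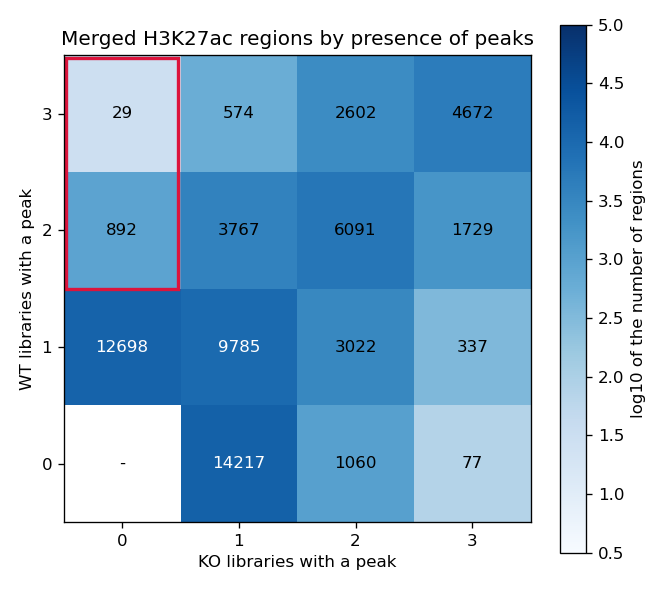
Number of merged H3K27ac regions by the number of WT libraries (vertical axis, 0 to 3) and KO libraries (horizontal axis, 0 to 3) with a peak, with colour showing the log10 of the number. The outlined cells hold the WT-only regions, 892 with a peak in 2 WT libraries and 29 with a peak in all 3, beside 4672 regions in all 6 libraries.

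Some WT-only regions lay on gene promoters. The 250 bases upstream of the annotated start are shown for 5 of them, in the sense of the gene, with each CpG in capitals. The first 4 are the leading protein-coding genes, in order of peak rank, whose promoter window was covered over at least 100 bp and that had no KO peak within 5 kb. Ranbp3l is the leading one with fewer than 5 CpG and shows the CpG-poor kind. They were chosen after their values were seen, and the sequences are RefSeq's for GRCm38.p6, the mm10 build.
Nmnat2: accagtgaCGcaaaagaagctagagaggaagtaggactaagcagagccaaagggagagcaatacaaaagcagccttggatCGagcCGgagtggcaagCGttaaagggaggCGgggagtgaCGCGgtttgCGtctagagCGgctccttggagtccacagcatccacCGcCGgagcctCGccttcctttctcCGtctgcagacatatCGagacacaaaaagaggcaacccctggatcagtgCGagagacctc
Dnase2a: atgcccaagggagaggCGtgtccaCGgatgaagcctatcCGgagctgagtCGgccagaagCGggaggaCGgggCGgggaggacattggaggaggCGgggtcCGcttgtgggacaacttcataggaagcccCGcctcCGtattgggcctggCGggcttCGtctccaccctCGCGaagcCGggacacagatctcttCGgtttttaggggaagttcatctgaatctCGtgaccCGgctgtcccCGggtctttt
Kank2: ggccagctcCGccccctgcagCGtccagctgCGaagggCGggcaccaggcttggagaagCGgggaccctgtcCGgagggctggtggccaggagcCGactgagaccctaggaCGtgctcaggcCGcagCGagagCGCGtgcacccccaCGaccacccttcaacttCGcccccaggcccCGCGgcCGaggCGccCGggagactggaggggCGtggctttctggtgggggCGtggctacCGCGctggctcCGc
Cdca7l: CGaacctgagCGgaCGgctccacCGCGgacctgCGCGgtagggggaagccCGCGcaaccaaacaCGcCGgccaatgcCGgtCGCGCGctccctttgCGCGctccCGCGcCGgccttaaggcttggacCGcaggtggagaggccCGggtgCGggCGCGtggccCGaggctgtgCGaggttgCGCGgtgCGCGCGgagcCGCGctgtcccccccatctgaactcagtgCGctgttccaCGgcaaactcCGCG
Ranbp3l: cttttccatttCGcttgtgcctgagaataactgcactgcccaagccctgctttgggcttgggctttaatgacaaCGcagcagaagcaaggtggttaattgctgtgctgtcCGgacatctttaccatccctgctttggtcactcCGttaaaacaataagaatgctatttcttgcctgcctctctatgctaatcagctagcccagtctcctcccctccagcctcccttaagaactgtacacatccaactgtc

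The 4 leading promoters are CpG-rich. The Nmnat2 stretch, chr1:152954851-152955100 on the plus strand, holds 15 CpG, and that of Dnase2a, chr8:84908505-84908754 on the plus strand, holds 20. The Kank2 stretch, chr9:21798547-21798796 on the minus strand, holds 24, and that of Cdca7l, chr12:117843611-117843860 on the plus strand, holds 38. The Ranbp3l stretch, chr15:8967699-8967948 on the plus strand, holds 4. Each of the 5 regions covers the annotated start.

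Nmnat2 encodes an enzyme of NAD synthesis that maintains axons. Its promoter region, chr1:152954721-152955400, had a fold of 8.06 in WT replicate 1 and 5.54 in WT replicate 2, from 16 and 19 fragments, and no peak in WT replicate 3. The nearest KO peak lay 19322 bp away. Dnase2a encodes a lysosomal DNase, and its region, chr8:84908679-84909098, had folds of 8.71 and 5.27 in WT replicates 1 and 2 from 19 and 18 fragments. That value in WT replicate 1 was the highest fold of any WT-only region in that library. The nearest KO peak was 50923 bp from it.

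Kank2, which encodes a protein of cell adhesion sites, had folds of 5.46 and 6.10 in WT replicates 1 and 2 at chr9:21798099-21798777, with a KO peak no nearer than 36989 bp. Cdca7l, a relative of the cell-cycle gene Cdca7, had folds of 5.67 and 5.54 in the same libraries at chr12:117843604-117844085, and its nearest KO peak was 106560 bp away. These 4 promoters thus had peaks in WT replicates 1 and 2 and in no other library. Ranbp3l encodes a Ran-binding protein and had its promoter peak in WT replicates 1 and 3, with folds of 5.69 and 3.94 at chr15:8967527-8968074. A second WT-only region inside Ranbp3l, chr15:9060649-9060868, had peaks in all 3 WT libraries, with folds of 4.62, 4.05 and 4.84, but a KO peak only 92 bp away.

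The WT-only regions rested mainly on the agreement of WT replicates 1 and 2. A peak in those 2 libraries and no other was found at 754 regions, which is 81.9% of the 921. WT replicates 2 and 3 shared 108 (11.7%), WT replicates 1 and 3 shared 30 (3.26%), and all 3 shared 29 (3.15%). WT replicate 3, with its short list, had a peak at 167 of the regions, against 813 in WT replicate 1 and 891 in WT replicate 2. KO-only regions also lay mostly in replicates 1 and 2 alone, with 796 (70.0%), but to a lesser extent. KO replicates 2 and 3 shared 254 (22.3%), KO replicates 1 and 3 shared 10 (0.88%), and all 3 KO libraries shared 77 (6.77%).

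The count itself moved with single libraries, and leaving out a library also changes the rule. With a WT library left out, a peak was needed in each remaining WT library, which by itself lowers the count. Without WT replicate 2 it was 63, and without WT replicate 1 it was 137. With a KO library left out, fewer lists had to lack a peak, which by itself raises the count. Without KO replicate 2, the library with the longest list, it was 4543, and without KO replicate 1 it was 1787. Leaving out replicate 3 of both genotypes gave 799, and using only the 4 libraries from males gave 186. These settings, too, needed a peak in each remaining WT library. KO replicate 2 alone had the KO peak at 3452 of the 4341 regions with 2 or 3 WT peaks and 1 KO peak.

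WT-only peaks were weak for their libraries. Their median fold was 4.49, 3.88 and 3.93 in WT replicates 1, 2 and 3, below the medians of the whole lists of 4.77, 4.24 and 4.20. At regions with a peak in all 6 libraries the medians were 6.00, 5.72 and 4.54. Fold ranged from 2.54 to 8.71 in WT replicate 1, from 2.20 to 6.84 in WT replicate 2 and from 2.83 to 6.15 in WT replicate 3. Among the peaks of the WT-only regions, 34.8%, 32.1% and 37.1% lay above the median of their list. The top decile of a list held 19, 9 and 9 of them.

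Few fragments stood behind these peaks. The median summit had 11 fragments in WT replicate 1, 16 in WT replicate 2 and 15 in WT replicate 3, where regions in all 6 libraries had 22, 35 and 20. Absence from a KO list therefore sets only an upper limit. At the lowest background, the lowest fold that was listed was 3.69, 2.96 and 3.32 in KO replicates 1, 2 and 3, from 7, 10 and 10 fragments. The lowest listed WT fold, over the WT libraries with a peak, exceeded all 3 of those values at 501 of the 921 regions (54.4%). At the other regions, a KO signal as high as the lowest listed WT fold could have gone unlisted where the KO background was lowest. At 892 of the 921, 1 WT library had no listed peak either, so its signal there is likewise not known. Of the 29 regions with a peak in all 3 WT libraries, 17 exceeded all 3 values. Away from the lowest background, the KO lists held folds down to 2.14, 1.72 and 2.08 in KO replicates 1, 2 and 3. The KO background at each region was not read, so the limit at a given region is not known.

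**Figure D2:**
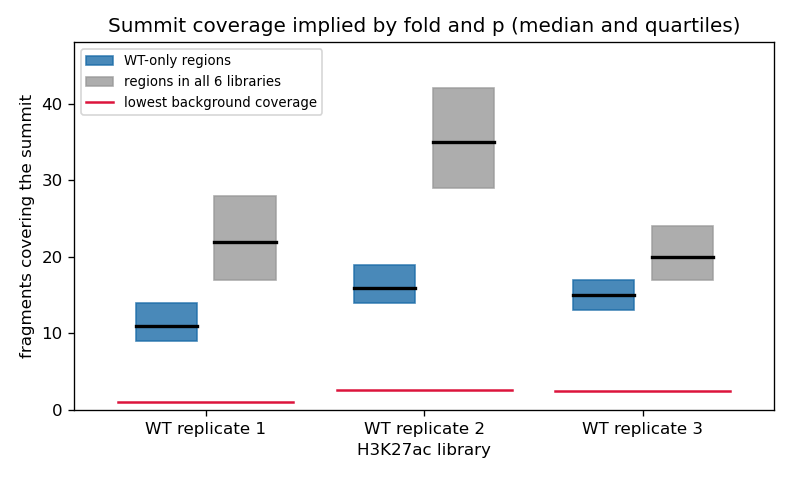
Fragments covering the peak summit (vertical axis) in the 3 WT H3K27ac libraries, for WT-only regions (blue) and regions with a peak in all 6 libraries (grey); boxes span the quartiles, black lines are medians and red lines the lowest background. The median at WT-only regions is 11, 16 and 15 fragments against 22, 35 and 20.

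The 29 regions with peaks in all 3 WT libraries are the most repeated of the set. A gene overlapped or lay within 1 kb of 22 of them, and 17 lay in a protein-coding gene. Their median fold was 4.74, 4.16 and 4.18 in WT replicates 1, 2 and 3, and the range over the libraries was from 3.13 to 6.95. Of the 29, 17 had a lowest WT fold above the lowest fold listed at the lowest background in all 3 KO libraries. Chromosome 12 held 7 of them, including a pair in Ncoa1. It held 49 of all 921 WT-only regions and 2869 of the 61552 merged regions.

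The strongest of these regions lay inside genes, far from a start site. Galnt10, an enzyme that begins O-linked glycosylation, had folds of 6.06, 6.00 and 4.79 in WT replicates 1, 2 and 3 at chr11:57786806-57787212, from 12, 24 and 16 fragments. The nearest KO peak lay 12430 bp away. Ints6, a subunit of the Integrator complex that processes nascent RNA, had folds of 6.16, 4.71 and 5.63 at chr14:62751419-62751751. Kcnh8, a voltage-gated potassium channel, had folds of 6.16, 4.16 and 5.63 at chr17:52711976-52712497, 109267 bp from a start site and 64322 bp from a KO peak. Mdga2, a membrane protein that restrains synapse formation, had folds of 5.22, 4.44 and 5.92 at chr12:67037742-67038041. At Ints6, Kcnh8 and Mdga2 the lowest of the 3 values was that of WT replicate 2.

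Sparc and Pakap show how differently such regions sat relative to KO peaks. Sparc encodes a secreted matrix glycoprotein, and its region had folds of 4.79, 4.47 and 5.03 from 20, 30 and 23 fragments, with a KO peak 351 bp away. Pakap, a locus that encodes an anchoring protein for protein kinase A, had folds of 4.27, 4.85 and 4.51 from 8, 17 and 15 fragments, with no KO peak nearer than 161292 bp. The Sparc region thus had the deeper coverage and a KO peak close by.

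The other named regions of this group lay in genes of varied function. Synpr, a protein of synaptic vesicles, had folds of 5.22, 4.71 and 3.38 in WT replicates 1, 2 and 3, and its nearest KO peak was 52679 bp away. Rps6ka2, a kinase downstream of ERK, had folds of 5.04, 4.59 and 3.58, with a KO peak 473 bp away. Ncoa1, a coactivator of nuclear receptors, held a pair of regions in all 3 WT libraries, at chr12:4285074-4285495 with folds of 4.64, 4.61 and 3.75 and at chr12:4306736-4307321 with folds of 4.20, 4.14 and 4.48. The nearest KO peaks to them were 6808 and 14236 bp away.

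Snx9, a protein of endocytosis, had folds of 3.60, 4.67 and 4.44. Qk, an RNA-binding protein needed for myelin formation, had folds of 3.92, 4.24 and 4.49, and Creb5, a transcription factor of the bZIP family, had 3.79, 4.60 and 3.94. In these 3 genes the lowest value was that of WT replicate 1. The other regions of this group with a gene lay at Egfr, Traf3 and genes with Gm or Rik names, of which 2700049A03Rik is a protein-coding gene with folds of 5.09, 4.16 and 3.30 and a KO peak 443 bp away.

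**Figure D3:**
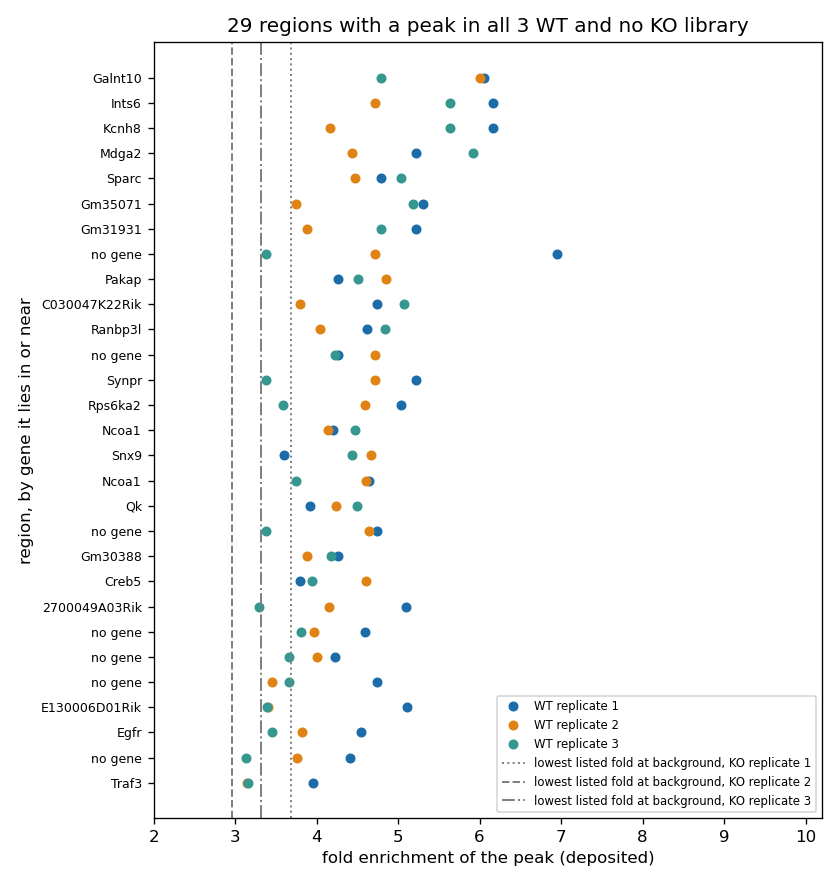
Deposited fold enrichment (horizontal axis) in WT replicates 1, 2 and 3 at the 29 regions with a peak in all 3 WT and no KO library, ordered by peak rank and named by the gene they lie in or near; vertical lines give the lowest listed fold at background of each KO library (3.69, 2.96 and 3.32). At 17 regions all 3 points lie right of all 3 lines.

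The strongest of the 892 regions with peaks in 2 WT libraries reached higher folds. Their medians of 4.48, 3.88 and 3.91 in WT replicates 1, 2 and 3 were lower than those of the 29 regions (4.74, 4.16 and 4.18). Cdk19, a kinase of the Mediator complex, had folds of 7.91 and 5.52 in WT replicates 1 and 2 from 27 and 32 fragments, and a KO peak lay 131 bp away. Ankrd45, an ankyrin-repeat protein, had 7.63 and 5.82, with a KO peak at 187 bp. Nsun6, an RNA cytosine methyltransferase, had 7.35 and 5.54 at a region 57 bp from a start site, with the nearest KO peak at 5229 bp. Nsun6 and the promoters of Nmnat2 and Dnase2a were thus free of a KO peak for more than 5 kb, and Cdk19 and Ankrd45 were not.

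Smpdl3b, a phosphodiesterase related to acid sphingomyelinase, had folds of 6.32 and 5.86 in WT replicates 1 and 2, with a KO peak at 10726 bp. Arhgef28, a guanine nucleotide exchange factor, had 7.11 and 4.99, with a KO peak at 57888 bp. Enox1, an NADH oxidase, had 6.79 and 5.47, and Sarm1, an NAD hydrolase that drives axon degeneration, had 6.02 and 5.54. Both lay close to a KO peak, at 189 bp for Enox1 and 143 bp for Sarm1.

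Many WT-only regions lay beside a site that a KO library also marked. A KO peak lay within 500 bp of 290 of the 921 regions (31.5%) and within 5 kb of 428 (46.5%). The median distance was 6570 bp, and 386 regions (41.9%) lay over 10 kb from any KO peak. KO-only regions had a WT peak within 500 bp in 288 of 1137 cases (25.3%), with a median distance of 6710 bp. The share was higher on promoters. Of the 108 regions on a promoter window, 64 (59.3%) had a KO peak within 500 bp, beside 211 of 763 (27.6%) among the other regions outside chromosome 18. Regions over 5 kb from a KO peak had a median fold of 4.60 in WT replicate 1, and those within 500 bp of one had 4.37.

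**Figure D4:**
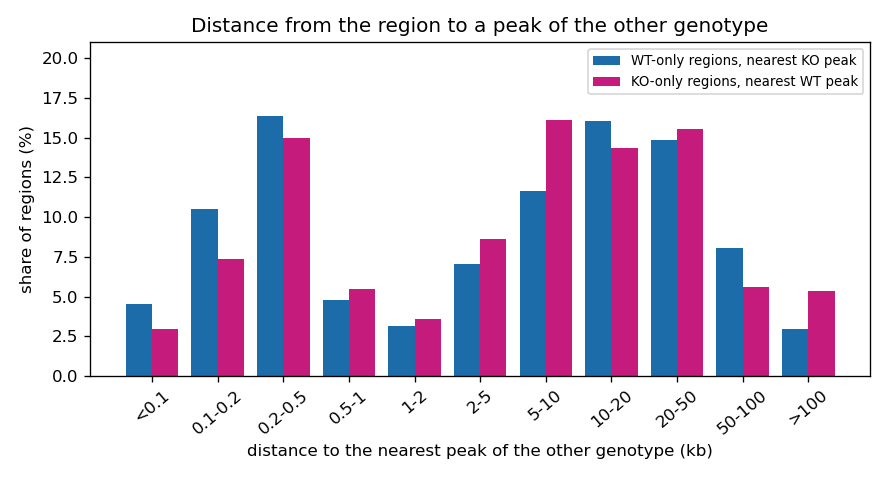
Share of regions (vertical axis, percent) by distance in kb to the nearest peak of the other genotype, for the 921 WT-only regions (blue, nearest KO peak) and the 1137 KO-only regions (magenta, nearest WT peak). In the bin of 0.2 to 0.5 kb lie 16.4% of WT-only and 14.9% of KO-only regions, and in the bin of 10 to 20 kb 16.1% and 14.3%.

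WT-only regions were short, and under the main rule a smaller share of them lay near gene ends and start sites than of all merged regions. Their median length was 327 bp, with quartiles of 263 and 405 bp, against 346 bp for KO-only regions and 876 bp for regions in all 6 libraries. A protein-coding gene held 609 of them (66.1%), close to the 66.5% of all merged regions. Of the 921, 246 (26.7%, 95% exact Clopper-Pearson interval 23.9% to 29.7%, which covers counting error only) lay within 1 kb of a gene end, against 31.4% of all merged regions, 22.1% of KO-only regions and 59.3% of those in all 6 libraries. Start sites were annotated outside chromosome 18 only, which left 871 regions. Of these, 195 (22.4%) lay within 1 kb of a start site and 534 (61.3%) over 10 kb from one, beside 25.8% and 57.6% of all merged regions and 14.7% and 61.9% of KO-only regions. Of the 871, 108 (12.4%) overlapped a promoter window, beside 15.7% of all merged regions and 7.14% of KO-only regions. The share of regions that were WT-only ran from 1.10% on chromosome 19 to 2.29% on chromosome 18. The KO-only share was also highest on chromosome 18, at 2.71%.

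Promoters at WT-only regions were CpG-rich. WT-only regions overlapped 127 promoter windows, each of 250 bases before and 50 after a start. The median window held 22 CpG, as at regions in all 6 libraries (22), against 7 over all 31365 windows and 14.5 at KO-only regions. The 81 windows of WT-only regions with a KO peak within 500 bp had a median of 24 CpG, and the 36 with none within 5 kb had 17.5. The motif GGGCGG of the SP and KLF factors, read on both strands, was in 59.1% of the 127 windows, 60.5% of those at regions in all 6 libraries, 50% at KO-only regions and 35.9% of all windows.

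Other motifs, also read on both strands, were less frequent in the 127 windows than in all windows, but not always than in the other sets. The homeodomain motif TAATTA was in 0 of the 127 windows, against 5.27% of all windows. It was in 2.5% of those at regions in all 6 libraries and 3.49% of those at KO-only regions. The SOX motif ATTGTT was in 3 (2.36%), against 10.6% of all windows, 6.53% at regions in all 6 libraries and 0% at KO-only regions. The AP-1 motif TGANTCA was in 3 (2.36%), against 7.85%, 4.38% and 8.14% in the same order. The E-box CANNTG was in 66.9% of the 127 and 72.2% of all windows, but in 56.5% at regions in all 6 libraries and 67.4% at KO-only regions. The NFI motif TTGGC was in 43.3% of the 127, against 46.7%, 48.9% and 52.3% in the same order. CpG-rich windows hold fewer A and T bases, with a median GC of 62.3% in the 127 and 53% in all windows. A match is a string of letters and not a bound site, and the motifs can overlap one another.

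A few genes held several WT-only regions. Of 636 protein-coding genes with at least 1, 44 had 2 or more, and 66 of the 636 also had a KO-only region. Apba2, an adaptor that binds the amyloid precursor protein, held 4 of its 23 merged regions and no KO-only region. All 4 had peaks in WT replicates 1 and 2, and 2 of them lay within 122 bp of a start site, with folds of 4.99 and 3.43 at chr7:64501752-64502093 and 4.68 and 3.41 at chr7:64502260-64502572. These 2 had KO peaks at 2466 and 1987 bp.

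Nfia, a transcription factor that starts gliogenesis in neural progenitors, held 4 WT-only regions among 73, with 2 KO-only regions and 5 present in all 6 libraries. Its strongest, chr4:97920282-97920751, had folds of 5.21 and 4.52 in WT replicates 1 and 2 and a KO peak at 3216 bp. Nfia thus kept regions shared by every library beside the WT-only ones. Spon1, a secreted protein of axon guidance, held 3 among 26, with folds from 4.06 to 4.27 in WT replicate 1 and from 3.90 to 5.00 in WT replicate 2.

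Genes of neural progenitors and interneurons held WT-only regions in small numbers, with shares on either side of the 1.5% of all merged regions. Of the 77 merged regions at progenitor genes, 2 were WT-only (2.6%) and 2 were KO-only. The WT-only region at Ccnd2, a cyclin of progenitor division, had folds of 3.13 and 3.09 in WT replicates 1 and 2 and a KO peak at 329 bp. It was among the weaker peaks, and genes such as Nes, Sox9, Pax6 and Fabp7 had a region in all 6 libraries.

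Of 52 regions at pan-GABAergic genes, 0 were KO-only and 1 was WT-only (1.92%). It lay 415 bp from a start of Dlx1, a homeodomain factor of interneuron progenitors, at chr2:71529860-71530198. Its folds were 4.74 and 3.60 in WT replicates 1 and 2 from 14 and 12 fragments, and the nearest KO peak was 76157 bp away. Of 126 regions at caudal eminence genes, 2 were KO-only, at Htr3a and Npas3, and 3 were WT-only (2.38%). The WT-only ones lay in Egfr, a growth factor receptor of progenitors, with folds of 4.54, 3.82 and 3.45 in WT replicates 1, 2 and 3, and at 2 places in Npas3, a neural bHLH-PAS factor, with folds of 4.47 and 3.52 and of 3.97 and 3.38 in WT replicates 1 and 2. Of 81 regions at medial eminence genes and 28 at cortical excitatory genes, 0 were WT-only, while 3 and 1 were KO-only.

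The other lists of cell types had 0 to 2 WT-only and 0 or 1 KO-only regions each, too few to set apart from the shares over all merged regions. Neuron differentiation genes had 2 of 154 (1.3%). The one at Map2, which encodes a dendritic microtubule protein, had folds of 3.15 and 3.24 in WT replicates 1 and 2. Astrocyte and oligodendrocyte genes had 1 of 46 (2.17%), at the myelin gene Mbp. Vascular and mesenchymal genes had 0 of 11, microglia and blood genes 0 of 11, and serotonin receptor genes 0 of 7.

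Genes that handle acetylation had the most among the lists, 5 of 130 (3.85%) beside the 1.5% of all merged regions, with no test of the list. Besides the pair in Ncoa1, they lay in the class IIa deacetylases Hdac4, Hdac5 and Hdac7. Hdac4 had folds of 4.11 and 3.88, Hdac5 3.92 and 3.05, and Hdac7 4.60 and 2.91 in WT replicates 1 and 2. Their KO peaks were close, at 116, 350 and 1782 bp. The acetylation list had 0 KO-only regions. Among genes of H3K9 methylation and SETDB1 partners, 1 of 57 regions was WT-only, at Atf7ip, which stabilises SETDB1. It had folds of 3.74 and 3.55 in WT replicates 2 and 3 and a KO peak at 192 bp. In that list 2 regions were KO-only, at Atf7ip itself and at Mphosph8.

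Of 268 regions at signalling genes of the Notch, Wnt, Shh and BMP pathways, 3 were WT-only and 4 were KO-only. The KO-only ones lay at Maml2, Axin2 and Smad7. The WT-only region at Smad7, an inhibitor of TGF-beta and BMP signalling, had folds of 4.34 and 3.88 in WT replicates 1 and 2 and a KO peak at 12371 bp. Id2, a BMP target that blocks bHLH factors, had 2.31 and 3.02 in WT replicates 2 and 3, and Ptch1, the Shh receptor, had 2.79 and 2.55 in WT replicates 1 and 2. KO peaks lay 449 bp from the Id2 region and 201 bp from the Ptch1 region.

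Regions just outside the rule, with 1 KO peak, ranked higher in the WT lists than WT-only regions with 2 WT peaks, and close to those with 3. Ranked by the percentile of fold within a list, averaged over the WT libraries with a peak, the median percentile was 36.9 for regions with 2 WT peaks, 44.7 for those with 3, and 45.2 for the 4341 regions with 2 or 3 WT peaks and 1 KO peak. The leading regions just outside were at Zfp13, Gm25360 and Cmss1. Zfp13, a zinc finger gene, had folds of 9.96 and 8.32 in WT replicates 1 and 2 and of 5.65 in KO replicate 2. Gm25360 had 12.1 and 7.21 in those WT libraries and 10.5 in KO replicate 1. Cmss1, related to a yeast protein of the small ribosomal subunit, had 9.96, 6.65 and 6.48 in WT and 11.3 in KO replicate 2. The weakest region inside the rule, near Sox21, a SOX factor of neurogenesis, had folds of 2.71 and 2.32 in WT replicates 1 and 2.

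H3K9me3 was measured in other samples and was not used to choose the regions, so its values do not follow from the rule. The titles of 2 of its KO samples share their first number with replicate 1 of H3K27ac. Within H3K9me3, only 1 KO and 1 WT sample share a first number, all 3 KO samples are male and 2 of the 3 WT samples are female, so genotype cannot be fully told apart from sex or from what that number marks. The deposited table lists only regions the authors called different between genotypes, 71.1% of them lower and 28.9% higher in KO. The p-values given below thus fall on regions already picked for a difference and are no independent test of one. WT-only H3K27ac regions overlapped one at 11 of 921 (1.19%), close to the 1.12% of regions with a peak in 1 WT library and no other. The share was 2.09% for all merged regions, 3.12% for those in all 6 libraries and 8.71% (99 of 1137) for the KO-only regions. Of the 11, 8 lay on a region listed as lower in KO and 3 on one listed as higher. After median-ratio scaling over the listed regions, the differences were lower in KO at 3 and higher at 8.

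Across the whole table, limma called 14.9% of the listed regions lower and 1.24% higher in KO at a Benjamini-Hochberg adjusted p under 0.05, and the 3 KO and 3 WT values did not overlap at 74.4%. At the 11 regions, 1 was lower and 0 were higher, with 2 lower and 1 higher at an unadjusted p under 0.05. The values did not overlap at 4 of the 11. The median difference, KO minus WT, was -0.50 on the log2(value + 1) scale, against -1.04 over all listed regions. After median-ratio scaling, which moved the median of all listed regions by 0.81, it was 0.34, against -0.23 over all listed regions. The direction of the median thus depended on the scaling, and it stood above that of all listed regions under both, by 0.54 and 0.56.

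The region called lower lay at A330093E20Rik on chromosome 18, at chr18:45961501-45964900, in the gene body class of the authors' deposited table. Its normalised counts were 43.3, 31.4 and 67.2 in KO and 138.3, 164.9 and 167.5 in WT, so that all 3 KO values lay below all 3 WT values. The means were 47.3 ± 18.3 (SD, n = 3) in KO and 156.9 ± 16.2 (SD, n = 3) in WT. The difference was -1.77 on the log2(value + 1) scale (limma adjusted p = 0.0471). That adjusted p ran from 0.0021 to 0.149 over the alternatives of limma, in which the difference stayed negative, from -2.05 to -0.95. The H3K27ac region there had folds of 5.31 and 3.88 in WT replicates 1 and 2 and a KO peak 60 bp away.

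The other 10 regions were not called in limma on the values as deposited. Frmd6 had values of 20.4, 23.1 and 90.8 in KO and 74.4, 95.1 and 44.9 in WT, which overlap. At Gm20778 on chromosome 8 the values were 476.4, 371.0 and 524.5 in KO and 313.8, 347.8 and 271.9 in WT, so that all KO values were higher (limma adjusted p = 0.0819). A region near Snhg14, a noncoding transcript of the imprinted domain on chromosome 7, had 104.4, 173.1 and 143.7 in KO and 108.1, 109.1 and 110.2 in WT. After median-ratio scaling, limma called 3 regions higher. These were Gm20778 (difference 1.37, adjusted p = 0.0135), the other region on chromosome 8 that the authors' deposited table assigns to the same gene (1.5, adjusted p = 0.0116) and the one near Snhg14 (1.16, adjusted p = 0.022). Of the 11 H3K27ac regions here, 8 had peaks in WT replicates 2 and 3 and not in WT replicate 1, although only 108 of all 921 had that pattern.

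**Figure D5:**
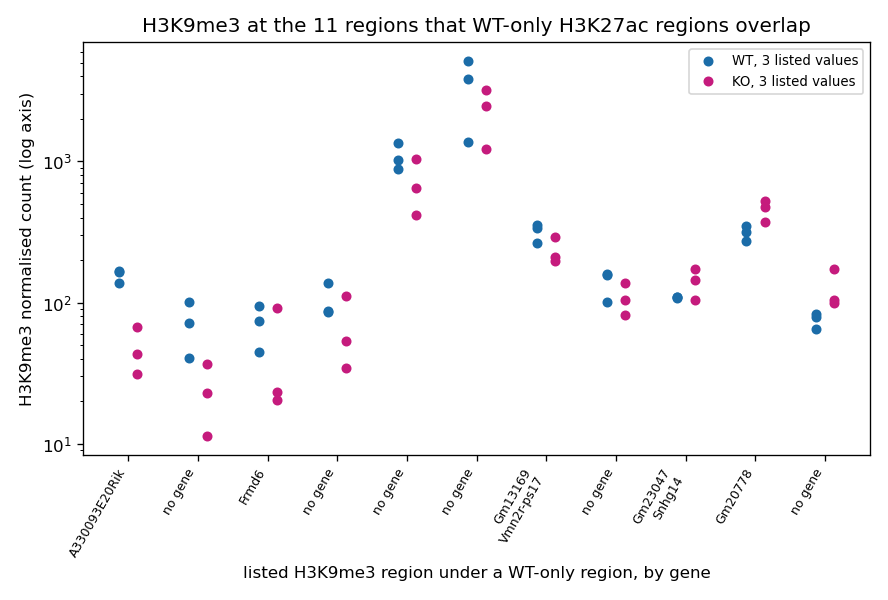
H3K9me3 normalised counts on a log axis at the 11 listed H3K9me3 regions that WT-only H3K27ac regions overlap, named by gene, with the 3 WT values in blue and the 3 KO values in magenta. All KO values lie below all WT values at A330093E20Rik and above them at Gm20778.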

How the data were processed

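Reads were aligned with Bowtie2 2.3.4.3 to mm10 and peaks called with MACS2 (version not given in the sources used here), per the submitters' processing notes. For each H3K27ac library the authors deposited a list of peaks with a score, a ratio (fold enrichment at the summit) and -log10 p and q. H3K9me3 came as 1 deposited table of the regions that the authors called different, with normalised signal (counts joined per genotype in unknown order), a log2 fold change and an adjusted p-value. The sources used here state no total depth. Summit fragments and background were computed from fold and p by inverting the Poisson p-value.

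Peaks were merged and compared in Python 3.11.15 with pandas 2.3.3. H3K9me3 was fitted over the whole table with limma 3.58.1 in R 4.3.3 on log2(value + 1), with trend and Benjamini-Hochberg adjustment. limma and the merging were tested on simulated data. The table holds only regions the authors called, so percentages of calls and p-values describe that selection. Genes, start sites and promoter windows came from RefSeq's tables for GRCm38.p6, which give gene extents without exons and no start sites for chromosome 18. With no genome used here, motifs were read in promoter windows and not at summits as planned. The members and gene lists were chosen with earlier results of these data known. Named genes are the leading regions by mean percentile of fold (up to 20 with 3 WT peaks and 10 with 2), up to 4 per gene list, those on H3K9me3 regions, the 3 genes with the most regions and the 3 leading regions just outside the rule. Some regions that this rule names are not reported here. The 3 samples of a group are animals, per the labels, so p-values measure the spread between them.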

Additional observations from a re-analysis of the deposited data

How the results depend on the processing

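The count of WT-only regions (921) fell to 434 when only peaks with a -log10 q of 5 or more were kept, to 507 with 10000 peaks per library, to 113 when only the WT peaks had to reach that q, and to 493 when no KO peak was allowed within 5 kb. Of the 921, 10 overlapped 1 of the 507 and 113 overlapped 1 of the 434. The 4 libraries from males gave 186. That setting, the distance limit and leaving out replicate 3 were chosen after seeing the data. Leaving out 1 library gave 63 to 4543, but it also makes the rule stricter or looser, which by itself moves the count. The KO-only count (1137) was 621, 672, 209, 648 and 425 under the same 5 settings in the same order, and 91 to 3629 with 1 library left out. Both counts stayed within 1.5 times with merging at 500 bp, with X and Y, and without replicate 3. The share within 1 kb of a gene end (26.7%) was 34.1% at 2.5 kb, 46.1% with the q threshold, 20.4% with merging at 500 bp, and 14.3% to 45.0% with 1 library left out. The count on a listed H3K9me3 region (11) was 34 within 1 kb and 6 with the q threshold, and 0 to 37 with 1 library left out. The median H3K9me3 difference (-0.50) was 0.34 with median-ratio scaling, and -0.84 to -0.38 with 1 listed value left out. The count called lower (1) was 2 with a pseudocount of 5 and 0 to 5 with 1 listed value left out. The count called higher (0) was 3 with median-ratio scaling, and 0 with any 1 value left out. For these changes the cause was not tested. No paired analysis was possible because the region counts come from no test and the joined H3K9me3 values carry no replicate numbers.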
